A study of Mus musculus with 10 samples.

Results

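Killer-cell lectin-like receptors are membrane proteins of the C-type lectin fold that natural killer (NK) cells and some T cells use to read ligands on other cells, and their genes carry mouse symbols that begin with Klr. All protein-coding Klr genes were taken by symbol from the annotation of the deposited transcripts, and 4 Klr pseudogenes were left out. This gave 27 of 34932 annotated genes. The member Klrh1 is listed in the annotation under its older name Gm156. The members are 11 Klra genes (the Ly49 receptors), 5 Klrb genes (the NKR-P1 receptors), 3 Klrc genes (NKG2A, NKG2C and NKG2E), 2 Klrg genes, 2 Klri genes and Klrd1, Klre1, Klrh1 and Klrk1. By textbook role 14 are inhibitory, 9 are activating and 2 (Klrd1 and Klre1) are partner chains of other members, while Klrg2 and Klrh1 were not classed.

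Inhibitory members carry a tyrosine motif in their cytoplasmic tail that recruits phosphatases such as Ptpn6 and Inpp5d, and activating members pair with adaptor proteins such as Hcst, Tyrobp or, for NKR-P1 receptors such as NK1.1, Fcer1g, which pass the signal to kinases. Klrd1 (CD94) pairs with a Klrc chain, and the pair binds the nonclassical MHC molecule Qa-1. The Klrc1 (NKG2A) pair restrains CD8+ T cells in tumors, Klrk1 (NKG2D) is a costimulatory receptor for stress-induced ligands, and Klrg1 marks short-lived effector CD8+ T cells.

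RNA was measured by a modified SMART-Seq2 protocol, with paired reads of 37 bp, in CD8+ T cells recovered from B16-F10 melanomas of 10 mice, 5 in the group labelled MIT-BATF and 5 in the group labelled MIT-Empty. All cells came from the spleens of Pmel Thy1.2 mice, whose transgenic T cell receptor recognizes the melanoma antigen gp100. Activation was with the gp100 peptide in IL-2 at 10 IU/mL. The cells were then transduced with a retrovirus that carries Thy1.1 with the mouse BATF reading frame or with no insert, and were expanded with IL-7 and IL-15 (each at 10 ng/mL) and a higher dose of IL-2 (50 IU/mL). Transduced cells were transferred into CD45.1 (Ly5.1) recipients, and on day 7 a total of 2000 live Thy1.1+ cells per mouse was sorted. The mice were on the C57BL/6 background, aged 8 to 12 weeks, and of both sexes. Both groups thus share the peptide, the cytokines, the vector and the transfer, and differ in the insert.

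Gene totals ran from 10702740 to 34102086 estimated counts in MIT-BATF and from 6534472 to 21355657 in MIT-Empty. The counts were not 10 separate sets. In each group the counts of replicate 4 lay within those of replicate 2 and the counts of replicate 5 within those of replicate 3, with the contained library higher in at most 0.661% of genes, against at least 3.54% in the other pairs of libraries. If these counts come from the same reads, p-values and errors over 5 libraries are too small, so each call below stands beside a fit in which shared reads were counted once. Mitochondrially encoded genes took 33.2% of the counts of MIT-BATF replicate 1 and 11.5% to 23.1% of those of the other 9 libraries. The insert was not seen as a higher Batf level, which was 19.9 ± 6.64 TPM in MIT-BATF and 26.2 ± 13.3 TPM in MIT-Empty (SD, n = 5; TPM is a share of all transcripts, scaled to transcript length), so the group names are those of the labels. An exchange of the labels between the groups would turn every direction given below, and was not tested. Whether a transcript of the vector's reading frame was counted as Batf is not known.

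The CD8+ T cell markers matched the sort. The 8 CD8+ T cell genes summed to between 3127 and 5173 CPM (counts scaled to library size, not to length) in MIT-BATF and between 3480 and 5738 CPM in MIT-Empty, and 0 of the 8 passed the test between groups by edgeR, with 0 at an unadjusted p under 0.05, and 0 by DESeq2. Ncr1, which defines NK cells, did not exceed 0.0978 CPM in any library, and Cd4 did not exceed 0.970 CPM. Some other RNA differed with the group. Melanoma markers summed to between 14.0 and 28.4 CPM in MIT-BATF and between 39.2 and 1688 CPM in MIT-Empty, with 5 of 5 tested members lower in MIT-BATF (2 of 5 with shared reads counted once). Macrophage markers summed to between 21.1 and 74.9 CPM in MIT-BATF and between 39.4 and 231 CPM in MIT-Empty. Of 8 tested, 2 (C1qc and Lyz2) were lower in MIT-BATF, and 0 with shared reads counted once (6 at an unadjusted p under 0.05). Over all genes tested, 286 of 11781 were lower as deposited (2133 at an unadjusted p under 0.05). With shared reads counted once 76 of 11129 were lower (1184 at an unadjusted p under 0.05).

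The sequences below show the member whose level differed most between the groups and the NKG2 genes whose reads are hardest to tell apart. They are the first coding bases within the first coding exon, on the minus strand of chromosome 6 (GRCm38), 5′ to 3′. Capitals mark bases that lie in at least 1 stretch of 31 bases found in no other annotated gene. Klrh1 lies at chr6:129775756-129775840, Klrc1 at chr6:129678791-129678910, Klrc2 at chr6:129660437-129660556 and Klrc3 at chr6:129643169-129643288.
Klrh1: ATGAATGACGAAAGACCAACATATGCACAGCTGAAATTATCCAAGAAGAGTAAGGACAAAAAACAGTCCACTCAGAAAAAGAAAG
Klrc1: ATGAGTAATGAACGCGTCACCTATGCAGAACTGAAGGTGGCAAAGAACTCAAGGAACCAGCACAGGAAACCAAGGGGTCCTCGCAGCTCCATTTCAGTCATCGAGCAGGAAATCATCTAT
Klrc2: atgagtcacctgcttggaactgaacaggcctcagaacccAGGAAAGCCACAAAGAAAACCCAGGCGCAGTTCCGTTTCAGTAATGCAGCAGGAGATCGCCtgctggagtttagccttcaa
Klrc3: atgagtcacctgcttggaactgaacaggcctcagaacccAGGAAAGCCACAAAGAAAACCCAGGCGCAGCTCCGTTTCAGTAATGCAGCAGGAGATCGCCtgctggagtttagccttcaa

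The 120 bases of Klrc2 and Klrc3 are equal at 119 positions and differ by T70C, counted from 1 at the start codon with the Klrc2 base given before the Klrc3 base. Reads of Klrc2 and Klrc3 from this stretch can be told apart only across that base. Over whole transcripts, 53.4% of the 31-base stretches of Klrc3 and 53.1% of those of Klrc1 occur in another gene, most of them in Klrc2, whereas 21.6% of those of Klrc2 do. Salmon splits such reads by estimate, so the separate levels of the Klrc genes are less certain than those of Klrd1 (0 stretches shared), Klrk1 (0.0138%), Klrh1 (0.8%) and Klre1 (1.00%). Among the Ly49 genes the share ran from 0.337% in Klra17 to 65.1% in Klra10.

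BATF forms dimers that bind AP-1 sites, so the motif TGANTCA was searched on both strands of the RefSeq promoters (GRCm38.p6; 250 bases before to 50 after each start). It occurs in 7.81% of 32851 promoters and in 5 of the 29 listed for 24 Klr genes, which belong to Klra2, Klrc2, Klrc3 and Klrk1. The pair of Klrc2 promoters overlaps and holds the same match, so that these are 4 sites. In Klrc2 and Klrc3 the match is bases 2 to 8 of the reading frame printed above. The match of Klrk1 is printed in capitals within a window of 25 bases at chr6:129623832-129623856, minus strand, where it takes up chr6:129623841-129623847.
Klrk1: tgaaggcttTGACTCAcaagaaaca

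Composite forms with an adjoining interferon-regulatory-factor element were searched too. TGANTCA directly preceded by GAAA (0.125% of promoters) and TGANTCA with TTTC placed 4 bases before it (0.119%) occur in 0 Klr promoters. The promoter of Klrh1, printed because Klrh1 is the member that differed most, holds 0 matches to TGANTCA. Its 250 bases before the start are at chr6:129784271-129784520, minus strand, in lower case because no motif marks it.
Klrh1 promoter: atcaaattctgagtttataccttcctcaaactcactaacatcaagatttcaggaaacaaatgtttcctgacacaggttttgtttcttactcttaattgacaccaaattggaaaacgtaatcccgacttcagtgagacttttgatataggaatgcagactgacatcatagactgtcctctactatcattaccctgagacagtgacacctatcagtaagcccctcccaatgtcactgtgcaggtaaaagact

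Tumor-infiltrating Pmel CD8+ T cells expressed a small part of the family at a high level. With at least 3 estimated counts as the limit of detection, 10 of the 27 genes were detected in all 10 libraries, 15 in some of them and 2 (Klrb1 and Klra10) in none. The 10 were the partner chains Klrd1 and Klre1, the activating Klrk1, Klrc2, Klrc3 and Klri2, the inhibitory Klrc1, Klra3 and Klra5, and Klrh1. Klrd1, Klrc1 and Klrk1 together made up 93.1% to 96.2% of all Klr TPM in a library. All members lie on chromosome 6, and the 9 neighbors from Klre1 to Klrh1 (chr6:129577905-129784270, 206 kb) carried 98.9% to 99.6% of Klr TPM. The 11 Klra genes beside them carried 0.25% to 0.959%, and the 5 Klrb genes 0.0471% to 0.138%.

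**Figure D1:**
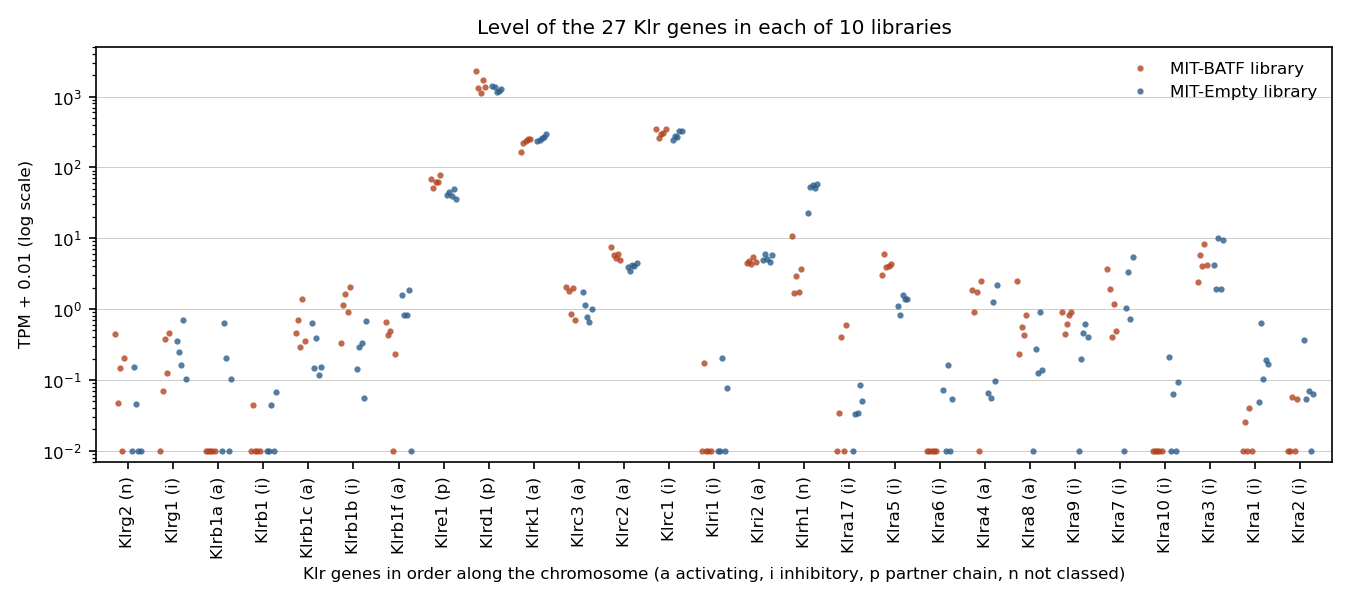
Level of each of the 27 Klr genes (x axis, in chromosome order, with its role) in TPM + 0.01 on a log scale (y axis), with 1 point per library for 5 MIT-BATF and 5 MIT-Empty libraries. Klrd1, Klrc1 and Klrk1 stand above all other members in every library, and Klrh1 lies at 1.66 to 10.8 TPM in MIT-BATF and 22.7 to 59.1 TPM in MIT-Empty.

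Klrd1, which encodes CD94, was the highest member. Its level in replicates 1 to 5 was 2276, 1332, 1134, 1699 and 1369.7 TPM in MIT-BATF and 1394, 1347, 1148, 1186 and 1285 TPM in MIT-Empty. This placed it between rank 82 and rank 171 of all genes by TPM, and it lay above every other member in 10 of 10 libraries. The groups overlapped, and MIT-BATF replicate 1 was the highest library. The log2 fold change of MIT-BATF over MIT-Empty was 0.39 (95% interval -0.20 to 0.98, adjusted p = 0.515), by the quasi-likelihood method of edgeR, adjusted over all genes tested after Benjamini and Hochberg, as for every adjusted p below unless DESeq2 is named. Between 54.1% and 62.0% of Klrd1 TPM was assigned to the coding transcript Klrd1-202 and between 34.4% and 42.3% to Klrd1-205, which is annotated as a target of nonsense-mediated decay, and the groups overlapped in both shares. The log2 fold change was 0.22 with shared reads counted once, and -0.19 also without MIT-BATF replicate 1.

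Klrc1, the NKG2A chain that forms an inhibitory pair with CD94, was the second highest member and made up 94.3% to 98.3% of the summed TPM of the 14 inhibitory genes. It was at 345, 258, 293, 301 and 346 TPM in MIT-BATF and at 242, 274, 270.3, 326 and 321 TPM in MIT-Empty. The groups overlapped, with a log2 fold change of 0.21 (95% interval -0.25 to 0.67, adjusted p = 0.671), and of 0.11 with shared reads counted once (-0.15 also without MIT-BATF replicate 1). Klrd1 TPM was 3.64 to 6.61 times Klrc1 TPM in a library, and Klrc1 was 43.9 to 81.3 times Klrc2, the activating NKG2C chain that uses the same partner.

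Klrk1, the NKG2D receptor, made up 89.7% to 95.6% of the summed TPM of the 9 activating genes. Its level was 167, 223, 235, 249 and 255 TPM in MIT-BATF and 235, 245, 261, 266 and 299.5 TPM in MIT-Empty. The lowest library was MIT-BATF replicate 1, and the groups overlapped (log2 fold change -0.17, 95% interval -0.52 to 0.18, adjusted p = 0.645). The order Klrd1, Klrc1 and then Klrk1 held in 10 of 10 libraries. Below these, neighbors in the order changed places between libraries. Klre1 lay above Klrh1 in 6 of 10 libraries and below it in replicates 2 to 5 of MIT-Empty, and Klri2 lay above Klrc2 in 5 of 10.

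Summed by class, neither the inhibitory nor the activating receptors separated the groups. The inhibitory genes summed to 322 ± 35.9 TPM in MIT-BATF and 297 ± 37.9 TPM in MIT-Empty (SD, n = 5), and the activating genes to 241 ± 33.1 and 274 ± 25.1 TPM. Inhibitory over activating TPM was 1.90, 1.15, 1.22, 1.20 and 1.33 in MIT-BATF and 1.00, 1.08, 1.05, 1.19 and 1.08 in MIT-Empty. MIT-BATF replicate 1, the library with the highest mitochondrial share, had the highest ratio, and the groups overlapped.

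**Figure D2:**
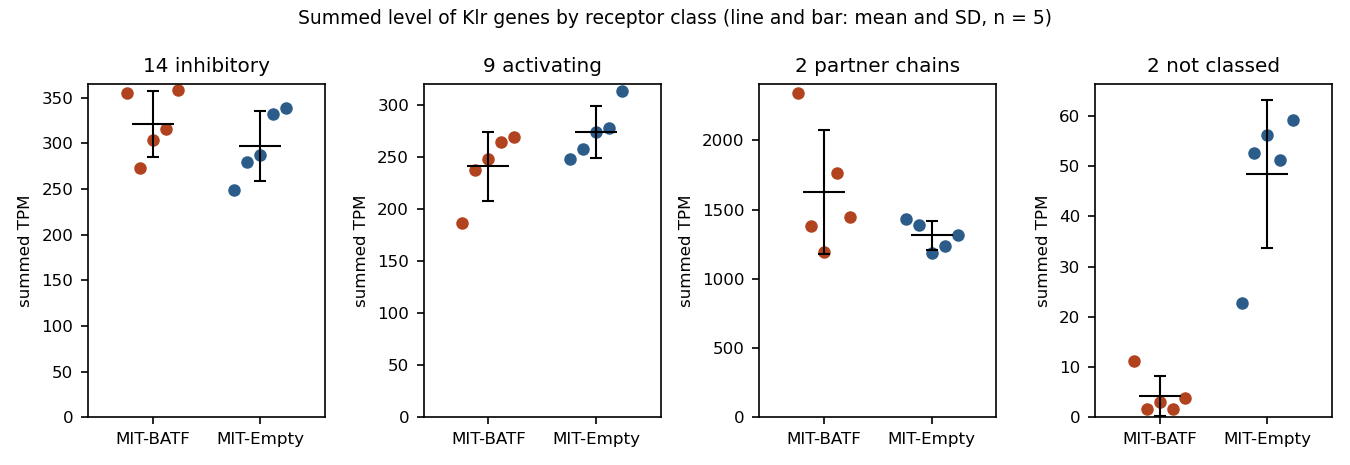
Summed TPM (y axis) of the inhibitory, activating, partner and not classed Klr genes in each MIT-BATF and MIT-Empty library (points), with the mean and SD of 5 libraries (line and bar). The first 3 classes overlap between the groups, and the genes not classed lie at 1.70 to 11.2 TPM in MIT-BATF and 22.7 to 59.1 TPM in MIT-Empty.

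The comparison of MIT-BATF with MIT-Empty addresses which transcripts differ between cells labelled as given the BATF vector and cells labelled as given the empty one. In bulk libraries, fewer cells that express a gene and less RNA of it per cell cannot be told apart. Of the 27 members, 18 passed the filter on low counts and were tested. Klra5 and Klrb1b, both inhibitory, were higher in MIT-BATF and Klrh1 was lower. That is 3 of 18, beside 4.58% of all 11781 genes tested (2.16% higher and 2.43% lower). With shared reads counted once, 0 of 15 tested members were higher and 1, Klrh1, was lower, beside 1.26% of 11129 genes (0.575% higher). At an unadjusted p under 0.05 there were 7 members in the counts as deposited, beside 2133 of all 11781 genes tested. With shared reads counted once there were 3, beside 1184 of all 11129. DESeq2 called the same 3 genes on the deposited counts, where 436 of all 11781 genes were higher and 480 lower. With shared reads counted once it called Klra5 and Klrh1, where 147 of all 11129 genes were higher and 146 lower. The median log2 fold change of the 18 was 0.45, against 0.0065 over all genes tested, and it was 0.22 against -0.0016 with shared reads counted once.

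**Figure D3:**
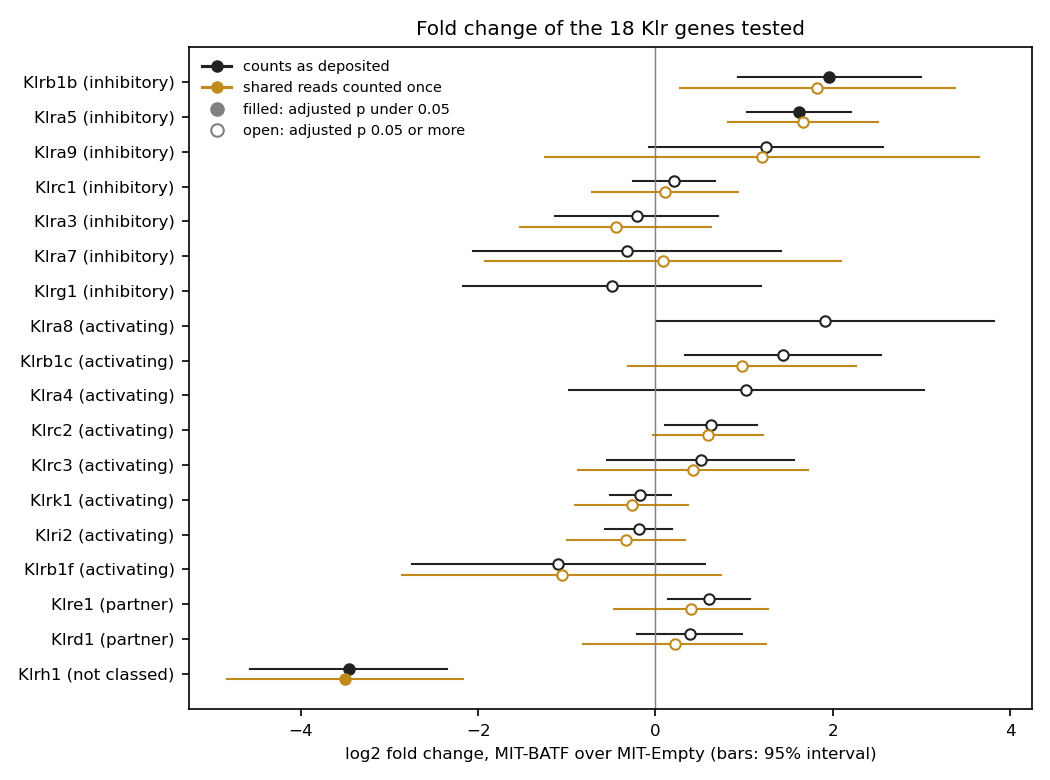
Log2 fold change of MIT-BATF over MIT-Empty (x axis) for the 18 Klr genes tested, by receptor class, with 95% intervals, for the counts as deposited (black) and with shared reads counted once (gold). Filled points passed the adjusted threshold of 0.05, which Klrh1 did in both fits and Klra5 and Klrb1b in the counts as deposited alone.

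Klrh1 (ENSMUSG00000071158.9, chr6:129766568-129784270, minus strand) was lower in the libraries labelled MIT-BATF by 11.0-fold. It encodes a killer-cell lectin-like receptor whose ligand and role are not settled. In CPM, replicates 1 to 5 of MIT-BATF held 15.7, 1.70, 2.57, 2.06 and 4.96 and those of MIT-Empty held 28.7, 66.2, 57.1, 64.8 and 69.4. Every MIT-BATF library was below every MIT-Empty library, and replicate 1 was the highest of its group in MIT-BATF and the lowest in MIT-Empty. The log2 fold change was -3.46 (SE 0.52, 95% interval -4.57 to -2.35, adjusted p = 0.00166). With shared reads counted once it was -3.50 (SE 0.62, adjusted p = 0.0131), and the groups stayed apart at 0.83 to 16.9 CPM and 30.8 to 74.7 CPM.

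By TPM, Klrh1 ranked between 939 and 1611 of all genes in MIT-Empty and between 2303 and 7839 in MIT-BATF. In MIT-Empty, at 48.3 ± 14.7 TPM, it stood next to Klre1 (41.7 ± 5.28 TPM). In MIT-BATF, at 4.16 ± 3.81 TPM, it stood next to Klra5 (4.26 ± 1.11 TPM). Its neighbor Klri2, on the same strand and an activating chain that pairs with Klre1, was at 43.3, 30.0, 23.8, 42.2 and 39.2 CPM in MIT-BATF and at 38.0, 48.4, 34.2, 37.3 and 45.1 CPM in MIT-Empty. Those groups overlapped, with a log2 fold change of -0.19 (95% interval -0.57 to 0.19, adjusted p = 0.637). The coding transcript Gm156-201 made up 91.8% to 96.5% of Klrh1 TPM in every library.

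Klrh1 was past the test in each of the 10 fits that left out 1 library, with log2 fold changes between -4.33 (without MIT-BATF replicate 1) and -3.22, and in each of the 10 with shared reads counted once (highest adjusted p = 0.041). It was not past the test when the 4 contained libraries were left out (-3.01, adjusted p = 0.0957) or the 4 containing ones (-2.83, adjusted p = 0.0875), which leaves 3 libraries in each group. Melanoma and macrophage markers were also higher in MIT-Empty. In replicates 1 to 5 of MIT-Empty the melanoma sum was 112, 561, 50.8, 1688 and 39.2 CPM. Klrh1 in the same libraries was at 28.7, 66.2, 57.1, 64.8 and 69.4 CPM. With shared reads counted once the melanoma sum was 121, 50.6, 66.4, 1824 and 42.2 CPM. The part of that RNA in the Klrh1 difference was not tested.

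Klra5 (ENSMUSG00000030173.15, chr6:129898996-129917650, minus strand) encodes Ly49E, an inhibitory Ly49 receptor, and was higher in MIT-BATF by 3.07-fold. It was at 7.55, 7.34, 4.89, 6.46 and 8.14 CPM in MIT-BATF and at 1.47, 1.72, 2.37, 2.91 and 2.74 CPM in MIT-Empty. The groups did not overlap, and the log2 fold change was 1.62 (SE 0.27, 95% interval 1.04 to 2.20, adjusted p = 0.0036). With shared reads counted once the log2 fold change was 1.66 and the adjusted p was 0.0555. MIT-BATF replicate 3 then held 2.61 CPM, below the highest MIT-Empty library at 3.14 CPM. Klra5 was past the test in 10 of 10 fits that left out 1 library from the deposited counts, and in 1 of 10 with shared reads counted once (adjusted p = 0.0153, without MIT-BATF replicate 3). Of its 31-base stretches 11.4% occur in another gene.

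Klrb1b (ENSMUSG00000079298.9, chr6:128813706-128826331, minus strand) encodes an inhibitory NKR-P1 receptor that binds the lectin Clec2d. In CPM, MIT-BATF libraries held 1.67, 3.12, 3.22, 2.84 and 6.63 of it and MIT-Empty libraries 0.612, 1.22, 0.778, 0.162 and 1.49. The groups did not overlap, though the lowest MIT-BATF library and the highest MIT-Empty library were close. The log2 fold change was 1.96 (SE 0.48, 95% interval 0.93 to 2.99, adjusted p = 0.0314). With shared reads counted once it was 1.82 (adjusted p = 0.332) and the groups overlapped. Of the 10 fits that left out 1 library, 2 kept it past the test (without MIT-BATF replicate 1 and without MIT-Empty replicate 5), and adjusted p-values ran from 0.0163 to 0.0774. Of its 31-base stretches 30.8% are shared, 27.5% with Gm44511, a gene that overlaps it on the same strand and was at 0.646 CPM or less in every library.

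**Figure D4:**
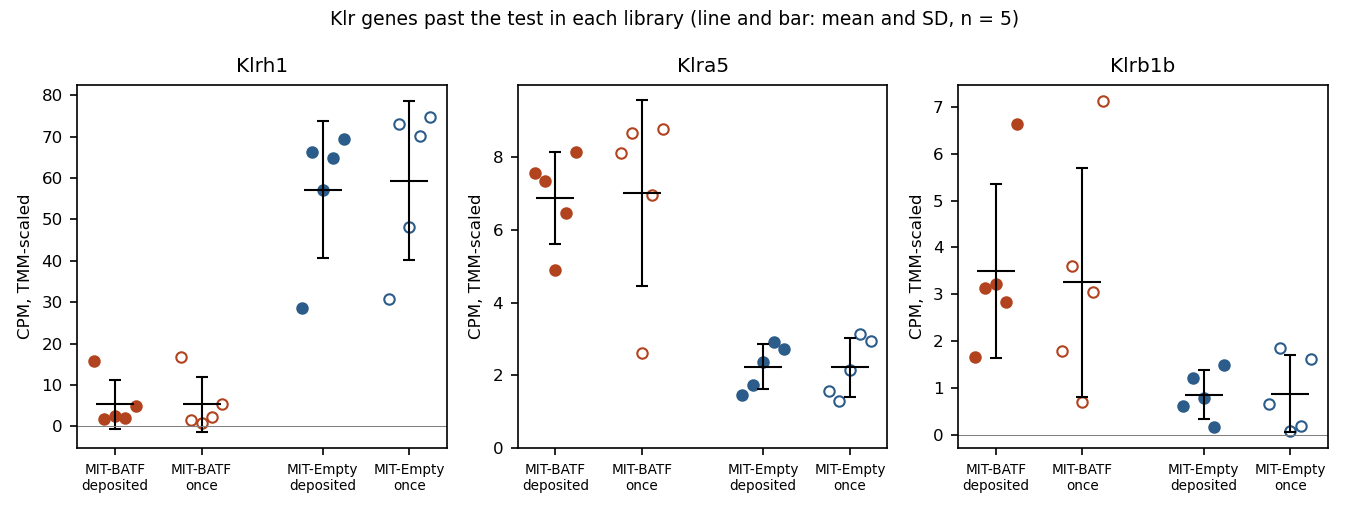
Level in CPM (y axis, scaled by TMM) of Klrh1, Klra5 and Klrb1b in each library labelled MIT-BATF or MIT-Empty, from the counts as deposited (filled) and with shared reads counted once (open), with the mean and SD of 5 libraries. Klrh1 keeps its groups apart in both, while in the open points MIT-BATF replicate 3 falls among the MIT-Empty libraries for Klra5, as replicates 1 and 3 do for Klrb1b.

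The other 5 inhibitory genes tested were not past the test. Klra3 (Ly49C) was at 5.53, 8.60, 5.35, 15.9 and 8.79 CPM in MIT-BATF and at 8.20, 3.96, 16.4, 3.72 and 17.8 CPM in MIT-Empty (log2 fold change -0.21, 95% interval -1.13 to 0.71, adjusted p = 0.854). Klra7 (Ly49G) was at 8.51, 2.96, 0.533, 2.25 and 1.02 CPM and at 0, 1.98, 5.12, 1.45 and 9.62 CPM (-0.32, 95% interval -2.06 to 1.41, adjusted p = 0.889). In both genes the spread within each group was wider than the difference between the groups. Klra9 (Ly49I) was at 2.37, 0.730, 0.927, 1.76 and 2.16 CPM and at 0, 0.406, 0.737, 1.29 and 0.913 CPM, a log2 fold change of 1.25 (95% interval -0.07 to 2.57, adjusted p = 0.302). The sequence shared with other Ly49 genes, 57.8% of the stretches in Klra9 and 43.5% in Klra3, leaves their separate levels uncertain.

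Klrg1, the marker of short-lived effector cells, was near the limit of detection. It was at 0, 0.122, 0.672, 0.294 and 1.29 CPM in MIT-BATF and at 0.857, 0.609, 0.328, 1.78 and 0.249 CPM in MIT-Empty, which is 0.197 ± 0.197 and 0.306 ± 0.241 TPM. The groups overlapped (log2 fold change -0.49, 95% interval -2.16 to 1.19, adjusted p = 0.807). That interval spans both lower and higher levels in MIT-BATF, and the smallest difference that could be detected was not tested. With shared reads counted once Klrg1 did not pass the filter on low counts and was not tested. Il7r, read beside Klrg1 as the marker of memory precursors, was at 244 ± 48.1 and 161 ± 29.2 CPM (adjusted p = 0.060).

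Of the 9 activating genes 8 were tested and 0 were past the test, by edgeR or by DESeq2. By edgeR 3 of them had an unadjusted p under 0.05, as had 2133 of all 11781 genes tested. Those 3 were Klrc2, Klrb1c and Klra8. With shared reads counted once 6 activating genes were tested and 0 had an unadjusted p under 0.05, beside 1184 of all 11129 genes. Klrc2 (NKG2C) was at 49.2, 24.9, 16.5, 31.6 and 20.3 CPM in MIT-BATF and at 20.3, 17.7, 16.2, 18.7 and 19.2 CPM in MIT-Empty (log2 fold change 0.62, 95% interval 0.10 to 1.14, adjusted p = 0.184). Its log2 fold change was 0.60 (adjusted p = 0.497) with shared reads counted once. Per length, every MIT-BATF library, at 4.88 to 7.43 TPM, was above every MIT-Empty library, at 3.44 to 4.50 TPM, while in CPM the groups overlapped. With shared reads counted once they overlapped too, at 14.7 to 52.7 CPM in MIT-BATF and 14.1 to 21.9 CPM in MIT-Empty. Between 42.7% and 63.4% of Klrc2 TPM came from the coding transcript Klrc2-205 and between 17.0% and 35.9% from a transcript with a retained intron.

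Klrb1c, which encodes NK1.1, was at 2.02, 2.07, 0.927, 3.23 and 1.24 CPM in MIT-BATF and at 0.980, 0.456, 1.19, 0.162 and 0.498 CPM in MIT-Empty. The groups overlapped, with a log2 fold change of 1.44 (95% interval 0.34 to 2.54, adjusted p = 0.142), and of 0.98 (adjusted p = 0.657) with shared reads counted once. Klra8 (Ly49H) was at 6.41, 0.365, 0.834, 0.881 and 1.94 CPM in MIT-BATF and at 0, 0.609, 0.205, 1.94 and 0.249 CPM in MIT-Empty (1.92, 95% interval 0.02 to 3.82, adjusted p = 0.269). Without MIT-BATF replicate 1 its log2 fold change was 0.90 (adjusted p = 0.571). In the fit of all 10 libraries with shared reads counted once, Klra8 was not tested.

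Klra4 (Ly49D), the other activating Ly49 receptor, was at 5.09, 1.62, 2.78, 0 and 6.04 CPM in MIT-BATF and at 0.122, 0.101, 2.29, 0.162 and 4.65 CPM in MIT-Empty, with a log2 fold change of 1.03 (adjusted p = 0.629). Replicates 3 and 5 of MIT-Empty, of which replicate 3 contains replicate 5, held 56.0 and 56.0 counts of it, and the other 3 held 2.05 or fewer. Klrc3 (NKG2E) was at 2.72, 1.58, 0.649, 2.15 and 0.862 CPM and at 1.84, 1.27, 0.655, 0.646 and 1.08 CPM (0.51, adjusted p = 0.650). Klrb1f, a costimulatory NKR-P1 receptor, was at 1.49, 1.09, 1.11, 0 and 0.755 CPM and at 2.94, 1.93, 2.25, 2.75 and 0 CPM (adjusted p = 0.508). All 3 overlapped between the groups.

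The partner chain Klre1, which pairs with Klri1 or Klri2, was at 166, 78.4, 85.3, 124 and 167 CPM in MIT-BATF and at 77.3, 89.4, 66.9, 102 and 73.6 CPM in MIT-Empty. The log2 fold change was 0.60 (95% interval 0.14 to 1.06, adjusted p = 0.146), and 0.40 (adjusted p = 0.838) with shared reads counted once. In TPM as deposited its MIT-BATF libraries, at 51.0 to 77.4, were all above the MIT-Empty libraries, at 35.4 to 49.3. With shared reads counted once the groups overlapped, at 25.5 to 179 CPM in MIT-BATF and 64.5 to 110 CPM in MIT-Empty. Klre1 was 10.67 to 16.8 times Klri2 in MIT-BATF and 6.07 to 10.75 times in MIT-Empty by TPM, so the groups overlapped. The inhibitory alternative Klri1 was detected in 2 of 10 libraries. Between 31.1% and 53.2% of Klre1 TPM was assigned to Klre1-202, a transcript annotated as a target of nonsense-mediated decay.

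The 9 members not tested were Klrg2, Klrb1a, Klrb1, Klri1, Klra17, Klra6, Klra10, Klra1 and Klra2. Klrb1a, Klra6 and Klra10 had a count of 0 in all 5 MIT-BATF libraries. This allows a level of up to 0.088 to 0.28 CPM in a library (3 counts of its total, not scaled by TMM). The highest MIT-Empty values of these genes, scaled by TMM, were 0.862, 0.246 and 0.245 CPM. Klra1 (Ly49A) was at 0 to 0.0979 CPM in MIT-BATF and at 0.122, 2.08, 0.246, 0.646 and 0.498 CPM in MIT-Empty, with 40.9 counts in MIT-Empty replicate 2 as its highest value. Klra17 (Ly49Q) reached 25 counts in MIT-BATF replicate 3 and 25 in replicate 5, which replicate 3 contains, and 1 or fewer elsewhere. Klrg2 reached 1.32 CPM in MIT-BATF replicate 1 and was at or below 0.323 CPM in the other libraries.

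Adaptors and signaling proteins of these receptors were listed as 20 genes, of which 18 were tested. Of these 1, the phosphoinositide kinase gene Pik3cd, was higher in MIT-BATF at 38.7 ± 3.41 CPM against 25.9 ± 3.58 CPM (log2 fold change 0.58, adjusted p = 0.029), and 0 were lower. Over all genes tested 2.16% were higher and 2.43% lower. Counting shared reads once raised the adjusted p of Pik3cd to 0.204. Hcst, the DAP10 adaptor of NKG2D, was at 669 ± 290.5 and 431 ± 85.8 CPM (0.63, adjusted p = 0.210), and Tyrobp, the DAP12 adaptor, at 18.5 ± 13.1 and 22.2 ± 6.48 CPM (adjusted p = 0.794). The phosphatase Ptpn6 was at 36.5 ± 13.3 and 58.8 ± 6.41 CPM (-0.68, adjusted p = 0.108). By DESeq2 on the deposited counts Ptpn6 was lower (adjusted p = 0.045), as were 480 of all 11781 genes. With shared reads counted once 18 of the list were tested by edgeR and 0 were past the test, beside 1.26% of 11129 genes. The median log2 fold change of the 18 in the counts as deposited was -0.02.

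Ligands of the family were listed as 22 genes, of which 18 are named in the annotation and 10 were tested. By edgeR 0 were past the test and 5 had an unadjusted p under 0.05, as had 2133 of all 11781 genes tested. With shared reads counted once 9 were tested, 0 were past the test and 2 had such a p, beside 1184 of all 11129 genes. By DESeq2 on the deposited counts 1 was higher, beside 436 of all 11781 genes. That gene, Ulbp1, encodes an NKG2D ligand and held 22.4 ± 2.03 CPM in MIT-BATF against 15.5 ± 2.25 in MIT-Empty, a log2 fold change of 0.54 (adjusted p = 0.055). H2-T23, which encodes Qa-1, was at 98.0 ± 6.21 and 78.7 ± 7.13 CPM (0.32, adjusted p = 0.177), and Clec2d, the ligand of Klrb1b, at 10.7 ± 4.12 and 7.19 ± 0.749 CPM (adjusted p = 0.265).

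Of 19 markers of effector and memory subsets, among which Klrg1 is commonly read, 18 were tested. Over all genes tested 2.16% were higher in MIT-BATF and 2.43% lower, and of these markers 3 were higher and 0 were lower. These were Id2, a transcriptional regulator of effector cells (867 ± 182 against 462 ± 109 CPM, log2 fold change 0.91, adjusted p = 0.015), Itga1, the CD49a integrin chain (8.01 ± 1.38 against 2.19 ± 1.45 CPM, 1.89, adjusted p = 0.011), and the survival gene Bcl2 (72.9 ± 8.29 against 45.8 ± 5.26 CPM, 0.67, adjusted p = 0.011). Of 17 markers tested with shared reads counted once, Bcl2 alone was past the test (adjusted p = 0.046), beside 0.575% of all genes higher. Cx3cr1, Zeb2 and Tbx21, which mark effector cells along with Klrg1, had adjusted p-values of 0.307, 0.631 and 0.583.

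Among markers of other cells that could express Klr genes, 7 of 10 NK cell genes were tested and 1, the kinase gene Txk, was lower in MIT-BATF (12.5 ± 1.10 against 20.6 ± 4.77 CPM, adjusted p = 0.031, and 0.194 with shared reads counted once). The NK list summed to 75.9 to 134 CPM in MIT-BATF and 87.0 to 170.5 CPM in MIT-Empty. Of NKT and gamma delta T cell genes 2 of 5 were tested and Maf was higher (20.7 ± 3.85 against 5.71 ± 2.68 CPM, log2 fold change 1.90, adjusted p = 0.001), while Zbtb16, which defines NKT cells, did not exceed 0.415 CPM. Itgax and Xcr1 of 4 tested dendritic cell genes and Cd79b of 1 tested B cell gene were higher in MIT-BATF, whereas Flt3, which defines dendritic cells, did not exceed 0.573 CPM. Maf and Xcr1 were also past the test with shared reads counted once, and Itgax and Cd79b were not. Over all genes tested 2.16% were higher and 2.43% lower as deposited, and 0.575% were higher with shared reads counted once. The dendritic cell list summed to 39.9 to 52.4 CPM in MIT-BATF and 28.2 to 34.5 CPM in MIT-Empty. The 1 tested CD4 T cell gene (Cd40lg) and the 1 tested neutrophil gene (Cxcr2) had adjusted p-values of 0.672 and 0.464. The part of any other cell type in the Klr values was not tested.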

How the data were processed

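The cells were sorted and sequenced as described above. Per the labels, reads went through the nf-core/rnaseq pipeline on mm10, with quantification by Salmon (no version stated in the sources read). For each library the deposited table lists estimated counts and TPM of 112092 transcripts, made by the authors, and 111787 of these matched the GENCODE annotation of GRCm38. Estimated counts as deposited were added up by gene, then rounded. TPM as deposited was added up by gene to give levels, with no test. The library protocol does not mark strand.

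Groups and replicate numbers were taken from the labels. Genes were tested with edgeR 4.0.16 in R 4.3.3 (quasi-likelihood test, TMM normalization, filterByExpr, group as the only term) over all genes, with Benjamini-Hochberg adjustment at 0.05. CPM was scaled by TMM, except for the limits given for a count of 0, and errors are SDs. Each library was taken to lie within another if fewer than 1% of the genes holding 5 or more counts were higher in it, which was so for 4 of 45 pairs. To count shared reads once, the contained counts were subtracted from the containing library, and values below 0 were set to 0 (at most 0.215% of its counts). The tables carry further numbers, 0, 1, 3, 10 and 30 for replicates 1 to 5 of both groups, whose meaning is not given and which were not used. Alternatives were DESeq2 1.42.0, limma 3.58.1 (voom), RLE size factors, no filter, a mean count of at least 50, a replicate block, transcript length offsets, mitochondrial genes left out and each library left out, some of them also with shared reads counted once, which was added after seeing the data. The edgeR step was tested on simulated data. The members, roles and gene lists were chosen with earlier results of these data known. All members were accounted for, those past the filter were given per library, and list members were named where they passed the test or define a cell type. Hcst, Tyrobp, Ptpn6, Ulbp1, H2-T23, Clec2d, Il7r, Cx3cr1, Zeb2, Tbx21, Cd40lg and Cxcr2 were named after their values were seen. Python 3.11.15, pandas 2.3.3 and matplotlib 3.10.9 were used for tables and figures.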

Additional observations from a re-analysis of the deposited data

Results flagged for a closer look

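In 2 of 36 groups of 5 libraries, 1 library stood apart from the other 4 by Dixon's ratio, where chance alone gives about 1 in 20 groups, or 1.8. Both were MIT-BATF replicate 1, the library with 33.2% of its counts in mitochondrially encoded genes. For Klrh1 it held 15.7 CPM, while its 4 companions held 1.70 to 4.96 CPM (ratio 0.768), and it lay below the lowest MIT-Empty library at 28.7 CPM. For Klra8 it held 6.41 CPM, against 0.365 to 1.94 CPM (ratio 0.739). The part of the mitochondrial share in these values was not tested.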

How the results depend on the processing

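Of 393 alternative fold changes over the 18 genes tested (set against the counts as deposited), 363 kept their direction and side of the threshold, 20 kept their direction but were no longer past it, and 10 in 4 genes changed sign. Fits that left out 1 library with shared reads counted once are not in this tally, and their changes of sign are given below. The count of higher genes, 2 as deposited, was 0 with shared reads counted once, with or without mitochondrial genes, and 0 with the contained or the containing libraries left out. It was 1 with a mean count of at least 50, with transcript length offsets and by DESeq2 with shared reads counted once, and 1 to 2 over the fits that left out 1 library each (0 to 1 with shared reads counted once, and 1 without MIT-BATF replicate 3). The count of lower genes, 1 as deposited, was 0 with the contained or the containing libraries left out, where fewer libraries were tested, and 3 with no filter, which added Klrb1a and Klra1. It was 1 in all fits that left out 1 library. The other alternatives gave the same counts of Klr genes. Over all genes, 254 were higher and 286 lower as deposited, 64 and 76 with shared reads counted once, 37 and 59 without the contained and 7 and 8 without the containing libraries, 436 and 480 by DESeq2, 357 and 546 with no filter, and 140 to 352 and 147 to 420 without 1 library.

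The fold changes that changed sign, in genes not past the test, were 0.010 for Klrg1 without MIT-Empty replicate 4, 0.053 for Klri2 without the containing libraries, and 0.045 and 0.11 for Klra3 without MIT-Empty replicates 3 and 5. For Klra7 they were 0.085 with shared reads counted once, 0.66 without the contained and 0.046 without the containing libraries, 0.13 by DESeq2 and 0.10 without mitochondrial genes (both with shared reads counted once) and 0.43 without MIT-Empty replicate 5. Over the fits that left out 1 library, the fold change ran from -0.73 to 0.010 for Klrg1, from -1.16 to 0.43 for Klra7 and from -0.51 to 0.11 for Klra3. With shared reads counted once, leaving out 1 library gave 148 fold changes over 15 genes, of which 139 kept their direction and side of the threshold, 1 (Klra5) came to lie past it and 8 changed sign against the fit with all 10 libraries. The fold changes ran from -0.19 to 0.49 for Klrd1 (below 0 without MIT-BATF replicate 1), from -0.15 to 0.35 for Klrc1 (below 0 without MIT-BATF replicate 1 or 5 or MIT-Empty replicate 3) and from -0.75 to 1.44 for Klra7. The range was -0.93 to -0.12 for Klra3. The cause was not tested.

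With the replicate number as a block, 2 members were higher and 1 was lower, as without it, and 235 and 239 of all genes were. Correlations of same-numbered libraries ran from -0.059 to 0.279 and only numbers 1 and 3 were above 0.1, so the numbers were not taken to pair the samples.

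The 9 members that did not pass the filter on low counts were not tested. A count of 0 allows a level of up to 0.088 to 0.459 CPM, by library.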
